A study of Homo sapiens with 14 samples.

Results

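The TGF-beta 1 effect in human induced neural crest cells was compared between 2 doses of the Wnt activator CHIR99021. The 8 libraries of 4 groups, out of 14 libraries in the series, were chosen by their labelled condition. All 4 groups came from WA01 (H1), an established human embryonic stem cell line, grown on Matrigel in DMEM/F12 medium with B27 and BSA and collected at day 5 of induction. In the low Wnt group the cells received 3 µM CHIR99021 during hours 0 to 72, and in the high Wnt group 10 µM over the same hours. The low Wnt + TGFB and high Wnt + TGFB groups received the same CHIR99021 doses together with recombinant human TGF-beta 1 at 5 ng/µL, the unit the labels state, during hours 0 to 120. Each group had 2 libraries of polyA RNA. Whether paired libraries are separate cultures is not in the labels. The p-values rest on the spread between libraries, which may be technical. The quantity tested was the difference between doses, that is, the log2 change with TGF-beta 1 in high Wnt minus the log2 change with TGF-beta 1 in low Wnt. A positive difference means a change more upward, or less downward, at the higher CHIR99021 dose. The low and high Wnt effects share no library.

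TGF-beta 1 binds a complex of type I and type II serine/threonine kinase receptors, which phosphorylate SMAD2 and SMAD3, and these enter the nucleus with SMAD4 to act on target genes. CHIR99021 inhibits the kinase GSK3, which stabilises beta-catenin and so activates Wnt target genes, and graded Wnt activity is used to induce neural crest from pluripotent cells and to shift its position along the body axis. Neural crest cells arise at the border of the neural plate, pass through an epithelial to mesenchymal transition and give rise to neurons, glia, pigment cells and, in the head, to connective tissue and smooth muscle, fates for which TGF-beta family signals are known regulators.

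The 8 libraries held between 10879287 and 16764513 counts assigned to genes, and the log2 CPM (a gene's count relative to its library's total, with the totals scaled by TMM) of the 2 libraries of a group correlated with r between 0.988 and 0.990 across genes. Expression of neural crest genes was partial and differed by dose. PAX3, a neural plate border and crest transcription factor, was at 8.59 and 6.64 CPM in low Wnt, 16.4 and 15.5 in low Wnt + TGFB, 177 and 169 in high Wnt, and 259 and 248 in high Wnt + TGFB. SNAI2, a transcription factor of crest delamination, ranged from 15.7 to 46.4 CPM. The early crest factor TFAP2A was between 3.17 and 19.1 CPM in the low Wnt libraries with and without TGF-beta 1 and at most 0.17 CPM in the 4 high Wnt libraries. SOX10, which marks migrating crest, stayed at or under 6.5 CPM in all of the 8 libraries, and FOXD3 was under 1 CPM in all but the 2 low Wnt + TGFB libraries. In bulk RNA, fewer cells of a type and less RNA per cell cannot be told apart.

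TGF-beta 1 changed a larger number of transcripts in low Wnt than in high Wnt, and for 1905 genes the 2 effects differed from each other. With edgeR's quasi-likelihood test and Benjamini-Hochberg adjustment over the 16149 genes tested, the difference between doses passed an adjusted p of 0.05 for 11.8% of genes, 926 with a higher (5.73%) and 979 with a lower (6.06%) value in high Wnt. In low Wnt, TGF-beta 1 raised 2220 genes (13.7%) and lowered 1976 (12.2%), together 26.0%. In high Wnt it raised 606 (3.75%) and lowered 564 (3.49%), together 7.25%. The share of rising genes among those called was 52.9% in low Wnt and 51.8% in high Wnt, and 66.8% and 66.2% when scaled by library totals alone. At both doses 580 genes changed, which is 13.8% of the genes called in low Wnt and 49.6% of those called in high Wnt. Of these, 384 changed in the same direction and 196 in opposite directions. The counts depended on single libraries. Without low Wnt + TGFB replicate 2 the difference was called for 1251 genes (593 higher), and the higher calls numbered 600 without high Wnt replicate 1 and 587 without high Wnt + TGFB replicate 1. The low Wnt effect was called for 2347 genes without low Wnt + TGFB replicate 2 and 2724 without low Wnt replicate 1. The high Wnt effect was called for 589 genes without high Wnt replicate 1, 714 without high Wnt replicate 2, 538 without high Wnt + TGFB replicate 1 and 637 without high Wnt + TGFB replicate 2.

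The 1905 genes fell into 5 classes by their separate effects. The largest class, 1251 genes, changed with TGF-beta 1 in low Wnt and did not pass the test in high Wnt, 685 of them rising and 566 falling. Another 245 genes passed only in high Wnt, with 144 rising and 101 falling. There were 196 genes with opposite effects (1.21% of genes tested) and 77 that moved the same way by different amounts, 64 of them by more in low Wnt on the log2 scale. The remaining 136 passed for the difference alone. Of the 1905 genes, 1440 had the larger absolute effect in low Wnt, where the median absolute log2 change was 0.84 against 0.35 in high Wnt. The spread between the 2 libraries of a group was similar at the 2 doses: over the 10948 genes that reached 10 CPM, the median absolute log2 difference between the 2 libraries was 0.101 in low Wnt, 0.127 in low Wnt + TGFB, 0.130 in high Wnt and 0.116 in high Wnt + TGFB. A call depended in part on detection, since 115 of the 1251 genes that passed in low Wnt alone were under 1 CPM in both high Wnt groups, as were 472 of the 2672 genes that changed in low Wnt without a called difference.

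**Figure D1:**
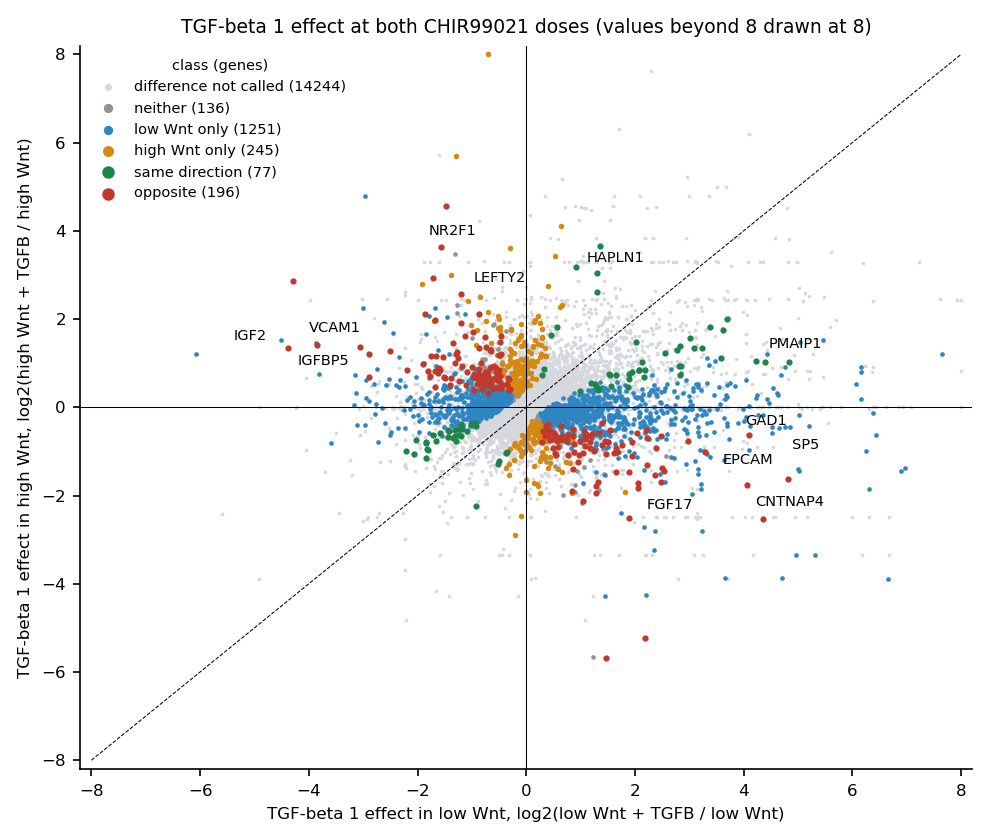
Each point is 1 of 16149 genes, placed by its log2 change with TGF-beta 1 in low Wnt (horizontal axis) and in high Wnt (vertical axis), coloured by class, with values beyond 8 drawn at 8 and a dashed line where the 2 effects are equal. The 1251 genes that passed in low Wnt alone spread along the horizontal axis, and the 196 genes of opposite effects lie in the upper left and lower right.

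Among the 196 genes of opposite effects, 102 fell with TGF-beta 1 in low Wnt and rose in high Wnt (0.632% of genes tested), and 94 rose in low Wnt and fell in high Wnt (0.582%). The 2 libraries with and the 2 without TGF-beta 1 did not overlap at either dose for any of the 196. This follows largely from their selection, since the effect was called at both doses in these same libraries. Among all genes tested, 34.2% had no overlap at both doses. The number of such genes was 116 without high Wnt replicate 1, 106 without high Wnt + TGFB replicate 1 and 129 without high Wnt + TGFB replicate 2. The member of the first set with the smallest p was VCAM1 (chr1:100719640-100739046, plus strand), a cell surface adhesion molecule that binds integrin alpha-4 beta-1. CNTNAP4 (chr16:76277278-76559238, plus strand), a neurexin-family membrane protein of synapses, had the largest negative difference of the second set among genes that reached 10 CPM. The RefSeq promoter of each (GRCh38.p14, 250 bases before to 50 after the annotated start, plus strand, VCAM1 at chr1:100719492-100719791 and CNTNAP4 at chr16:76277151-76277450) is shown because these 2 genes mark the 2 directions of the reversal. Capitals mark a match to the SMAD-binding CAGA motif (CAGACA on either strand). Neither promoter held the TCF/LEF core CTTTGAT or the SMAD box GTCTAGAC, and that of CNTNAP4 held no match to any of the 3.
VCAM1: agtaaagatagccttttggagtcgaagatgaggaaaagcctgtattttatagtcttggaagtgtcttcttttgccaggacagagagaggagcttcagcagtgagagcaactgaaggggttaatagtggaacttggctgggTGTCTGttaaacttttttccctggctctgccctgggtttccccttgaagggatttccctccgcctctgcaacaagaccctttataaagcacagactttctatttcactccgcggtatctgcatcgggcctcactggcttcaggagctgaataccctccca
CNTNAP4: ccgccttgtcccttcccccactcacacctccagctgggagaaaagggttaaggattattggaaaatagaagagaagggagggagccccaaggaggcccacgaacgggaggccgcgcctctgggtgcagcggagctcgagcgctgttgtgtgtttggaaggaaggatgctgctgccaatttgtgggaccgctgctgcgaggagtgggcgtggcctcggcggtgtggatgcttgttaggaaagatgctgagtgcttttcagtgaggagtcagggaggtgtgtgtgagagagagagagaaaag
The motifs were counted over both sets. CAGACA was found in 12 of the 71 promoters matched for the 102 genes (16.9%) and 8 of the 67 matched for the 94 genes (11.9%), against 12.6% of the 11644 promoters matched for the genes tested and 16.8% of all 27305 in the table. CTTTGAT was in 1 promoter of each set (1.41% and 1.49%), against 1.4% of the genes tested and 2.64% of all. These are letters in a window, with no measurement of binding.

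VCAM1 stood at 12.4 and 12.9 CPM in low Wnt, 0.925 and 0.820 in low Wnt + TGFB, 5.24 and 5.57 in high Wnt, and 13.8 and 15.2 in high Wnt + TGFB. TGF-beta 1 thus lowered it in low Wnt to under 1 CPM and raised it in high Wnt, so that the dose with the higher level turned over. The difference between doses was 5.27 ± 0.25 log2 units (± standard error, 2 libraries in each of 4 groups) with an adjusted p of 2.8e-09. In the libraries with the TGF-beta receptor inhibitor SB431542 in place of TGF-beta 1, VCAM1 was at 66.5 and 67.1 CPM in low Wnt + SB4 and 0.699 and 0.892 in high Wnt + SB4.

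IGF2, H19 and IGFBP5, of the insulin-like growth factor system, fell in low Wnt and rose in high Wnt. IGF2, a fetal growth factor, was at 11.6 and 10.2 CPM in low Wnt, 0.427 and 0.586 in low Wnt + TGFB, 12.7 and 10.7 in high Wnt, and 33.2 and 26.1 in high Wnt + TGFB. H19, the imprinted noncoding RNA next to IGF2 on chromosome 11, was at 6.46 and 6.46 CPM in low Wnt, 0.640 and 0.878 in low Wnt + TGFB, 5.15 and 5.78 in high Wnt, and 14.8 and 13.5 in high Wnt + TGFB. IGFBP5, a secreted IGF-binding protein and the most abundant of these 3, was at 1413 and 1402 CPM in low Wnt, 215 and 163 in low Wnt + TGFB, 281 and 343 in high Wnt, and 494 and 507 in high Wnt + TGFB. In all 3 the treated libraries lay below the untreated ones in low Wnt and above them in high Wnt, with no overlap. The differences were 5.73 ± 0.41 for IGF2 (adjusted p = 2.5e-07), 4.42 ± 0.37 for H19 (adjusted p = 5.6e-07) and 3.58 ± 0.17 for IGFBP5 (adjusted p = 2.8e-09). Over all genes tested, 13.7% rose and 12.2% fell in low Wnt, and 3.75% rose and 3.49% fell in high Wnt. The difference was called for 11.8%, and these shares are the background for the counts of every list. Of the 15 members of the IGF list tested, 6 fell and 4 rose in low Wnt and 3 rose and 3 fell in high Wnt. Of these 15, 5 had a called higher and 4 a called lower difference, with a median of 0.22 against 0.0085 over all genes. The lower ones included the binding protein IGFBP3, which rose from 4.63 and 4.96 to 10.3 and 10.4 CPM in low Wnt. IGFBP3 was at 15.3 and 16.99 CPM in high Wnt and 13.3 and 14.4 in high Wnt + TGFB (difference -1.33 ± 0.25, adjusted p = 0.0021).

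The orphan nuclear receptors NR2F1 and NR2F2 (COUP-TFI and COUP-TFII), transcription factors of the crest and of head mesenchyme, changed in the same pattern. NR2F1 was at 107 and 100.3 CPM in low Wnt, 35.9 and 33.8 in low Wnt + TGFB, 1.16 and 0.894 in high Wnt, and 12.1 and 13.1 in high Wnt + TGFB. NR2F2 was at 379 and 316 CPM in low Wnt, 116 and 101 in low Wnt + TGFB, 20.5 and 20.3 in high Wnt, and 88.1 and 72.8 in high Wnt + TGFB. Both were far more abundant in low Wnt than in high Wnt without TGF-beta 1, and TGF-beta 1 brought the 2 doses closer together from both sides. Their differences were 5.20 ± 0.26 (adjusted p = 2.9e-09) and 3.66 ± 0.19 (adjusted p = 3.3e-09). Of 21 crest specifiers tested, 2 were called higher, these 2 receptors, and 5 lower, with a median of -0.16.

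The TALE homeodomain factors MEIS1 and MEIS2, which act with HOX proteins, were also reversed. MEIS2 was at 252 and 240.3 CPM in low Wnt, 113 and 90.5 in low Wnt + TGFB, 59.1 and 68.9 in high Wnt, and 154 and 153 in high Wnt + TGFB. MEIS1 was at 28.4 and 28.3 CPM in low Wnt, 10.7 and 9.37 in low Wnt + TGFB, 78.5 and 70.7 in high Wnt, and 121 and 117 in high Wnt + TGFB. For MEIS2 the higher dose was below the lower one without TGF-beta 1 and above it with TGF-beta 1. The differences were 2.54 ± 0.17 (adjusted p = 7.6e-08) and 2.17 ± 0.17 (adjusted p = 3.2e-07). The MEIS genes are members of the retinoic acid list, in which 6 of 19 tested genes were called higher and 3 lower (median 0.28). CRABP1, a cytoplasmic retinoic acid-binding protein, fell from 1318 and 1161 to 404 and 374 CPM in low Wnt and stayed between 9.20 and 11.5 CPM in high Wnt, a difference of 1.52 ± 0.20 (adjusted p = 6.4e-05). The retinoic acid receptor RARB fell from 83.9 and 83.2 to 30.4 and 24.1 CPM in low Wnt. RARB was at 9.64 and 15.2 CPM in high Wnt and 14.1 and 13.6 in high Wnt + TGFB (difference 1.76 ± 0.23).

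COL1A2, NID2, COL2A1 and PDGFRB also fell in low Wnt and rose in high Wnt. COL1A2, a chain of type I collagen, was at 651 and 709 CPM in low Wnt, 272 and 282 in low Wnt + TGFB, 547 and 563 in high Wnt, and 1347 and 1219 in high Wnt + TGFB. NID2, a basement membrane nidogen, was at 231 and 229 CPM in low Wnt, 75.1 and 60.4 in low Wnt + TGFB, 54.2 and 60.9 in high Wnt, and 94.9 and 94.4 in high Wnt + TGFB. COL2A1, the type II collagen of cartilage, was at 320.1 and 338 CPM in low Wnt, 187 and 231 in low Wnt + TGFB, 542 and 553 in high Wnt, and 1045 and 1002 in high Wnt + TGFB. At each dose the treated and untreated libraries of these 3 genes were separate. The receptor PDGFRB, a marker of mesenchymal and perivascular cells, fell from 227 and 249 to 139 and 129.6 CPM in low Wnt and rose from 122 and 118 to 213 and 189 CPM in high Wnt, so the dose with the higher level turned over. The differences were 2.50 ± 0.13 for COL1A2 (adjusted p = 5.0e-09), 2.48 ± 0.15 for NID2 (adjusted p = 3.0e-08), 1.56 ± 0.15 for COL2A1 (adjusted p = 2.0e-06) and 1.56 ± 0.14 for PDGFRB (adjusted p = 1.3e-06). Neither the collagens nor the matrix glycoproteins moved this way as lists. Of 30 matrix proteoglycans and glycoproteins tested, 16 rose and 4 fell in low Wnt, 10 rose and 1 fell in high Wnt, and the difference was called higher for 8 and lower for 7 (median -0.13). Of 28 collagens tested, 13 rose and 5 fell in low Wnt, 12 rose and 1 fell in high Wnt, and the difference was called higher for 5 and lower for 2, with a median of -0.08. ACTA2, the smooth muscle actin, was at 31.5 and 28.1 CPM in low Wnt, 21.1 and 17.2 in low Wnt + TGFB, 228 and 189.7 in high Wnt, and 313 and 304 in high Wnt + TGFB. ACTA2 had a difference of 1.21 ± 0.17 (adjusted p = 1.4e-04). Its rise in high Wnt lost its call without high Wnt replicate 2 (adjusted p = 0.074). Of 13 contractile smooth muscle genes tested, 4 were called higher and 2 lower.

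Genes with higher expression in high Wnt that reversed included EBF3 and PLXNA2. EBF3, a helix-loop-helix transcription factor of neural and mesenchymal progenitors, was at 3.05 and 3.29 CPM in low Wnt, 1.28 and 1.46 in low Wnt + TGFB, 7.40 and 6.12 in high Wnt, and 43.2 and 36.9 in high Wnt + TGFB. PLXNA2, a plexin that transduces semaphorin signals, was at 22.4 and 23.9 CPM in low Wnt, 13.7 and 13.7 in low Wnt + TGFB, 43.3 and 46.7 in high Wnt, and 141 and 130.1 in high Wnt + TGFB. In both, the fall in low Wnt was small beside the rise in high Wnt. The differences were 3.76 ± 0.34 (adjusted p = 1.4e-06) and 2.34 ± 0.18 (adjusted p = 2.5e-07).

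CNTNAP4, GAD1, JARID2, PCDH1 and DNMT3B were among the 94 genes that rose in low Wnt and fell in high Wnt. CNTNAP4 was at 0.487 and 0.598 CPM in low Wnt, 8.32 and 10.0 in low Wnt + TGFB, 22.2 and 25.2 in high Wnt, and 7.17 and 6.81 in high Wnt + TGFB. In low Wnt it rose from under 1 CPM, and in high Wnt it dropped to a level close to that of low Wnt + TGFB, with a difference of -5.82 ± 0.32 (adjusted p = 7.8e-09). GAD1, the GABA-synthesising glutamate decarboxylase, was at 0.731 and 0.897 CPM in low Wnt, 11.8 and 16.2 in low Wnt + TGFB, 89.4 and 74.6 in high Wnt, and 54.0 and 52.0 in high Wnt + TGFB. Its rise in low Wnt was large and its fall in high Wnt smaller, and that fall lost its call without high Wnt replicate 1, without either high Wnt + TGFB library and with scaling by library totals alone (adjusted p up to 0.27). The difference of -4.73 ± 0.34 (adjusted p = 1.4e-07) kept its call in the same 4 analyses.

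JARID2, an accessory protein of the Polycomb repressive complex PRC2, was at 143 and 145 CPM in low Wnt, 286 and 321 in low Wnt + TGFB, 173 and 170.4 in high Wnt, and 108 and 102 in high Wnt + TGFB. PCDH1, a protocadherin of epithelial junctions, was at 16.1 and 20.1 CPM in low Wnt, 64.1 and 75.4 in low Wnt + TGFB, 9.31 and 9.08 in high Wnt, and 4.39 and 4.17 in high Wnt + TGFB. DNMT3B, the de novo DNA methyltransferase of pluripotent cells, was at 241 and 259.8 CPM in low Wnt, 623 and 685 in low Wnt + TGFB, 154 and 153 in high Wnt, and 119.8 and 120.3 in high Wnt + TGFB. All 3 rose in low Wnt towards the level of the undifferentiated stem cells, at 581 and 541 CPM for JARID2, 161 and 193 CPM for PCDH1 and 2026 and 2189 CPM for DNMT3B. The differences were -1.79 ± 0.13 (adjusted p = 1.3e-07), -3.05 ± 0.23 (adjusted p = 2.1e-07) and -1.74 ± 0.13 (adjusted p = 2.1e-07). The fall of DNMT3B in high Wnt was small and lost its call without any 1 of the 4 high Wnt libraries and with scaling by library totals alone (adjusted p up to 0.17).

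FGF signalling acts through the kinase ERK, which induces ETS transcription factors and its own inhibitors, the Sprouty proteins and dual-specificity phosphatases. Of the 14 tested genes of the FGF and ERK response, 7 were called for the difference, each with the lower change in high Wnt, and the median was -1.09. ETV5, an ETS factor, was at 6.58 and 7.18 CPM in low Wnt, 19.1 and 19.9 in low Wnt + TGFB, 89.1 and 90.2 in high Wnt, and 49.9 and 54.7 in high Wnt + TGFB. SPRY4, a Sprouty inhibitor, was at 5.06 and 4.78 CPM in low Wnt, 33.2 and 44.1 in low Wnt + TGFB, 61.1 and 68.8 in high Wnt, and 33.6 and 42.1 in high Wnt + TGFB. The related ETS factor ETV4 was at 3.47 and 4.25 CPM in low Wnt, 25.0 and 32.6 in low Wnt + TGFB, 36.1 and 34.8 in high Wnt, and 35.6 and 35.0 in high Wnt + TGFB. Without TGF-beta 1 these genes were far higher in high Wnt than in low Wnt, and on the log2 scale the rise in low Wnt was larger than the change in high Wnt for all 3. The differences were -2.28 ± 0.17 for ETV5 (adjusted p = 1.7e-07), -3.75 ± 0.30 for SPRY4 (adjusted p = 3.7e-07) and -2.91 ± 0.25 for ETV4 (adjusted p = 7.0e-07). The fall of SPRY4 in high Wnt lost its call without high Wnt replicate 2 or without high Wnt + TGFB replicate 1 (adjusted p up to 0.19).

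The FGF ligands and receptors were mixed: of 18 tested, 5 rose and 3 fell in low Wnt and 8 fell in high Wnt. FGF2 was at 79.1 and 84.8 CPM in low Wnt, 124 and 134 in low Wnt + TGFB, 103 and 117 in high Wnt, and 67.7 and 69.6 in high Wnt + TGFB. It was higher in high Wnt without TGF-beta 1 and in low Wnt with it. FGF17, a ligand of the tail bud and midbrain, fell from 101 and 69.1 to 23.1 and 24.5 CPM in high Wnt and rose in low Wnt to no more than 2.05 CPM. The difference was -1.33 ± 0.19 for FGF2 (adjusted p = 1.9e-04) and -3.89 ± 0.57 for FGF17 (adjusted p = 1.9e-04). The fall of FGF2 in high Wnt lost its call without high Wnt replicate 2 or without high Wnt + TGFB replicate 1 (adjusted p up to 0.066), and the rise of FGF17 in low Wnt without low Wnt replicate 2 or without low Wnt + TGFB replicate 2 (adjusted p up to 0.14). FGF8, an organiser ligand, was at 2.25 and 1.32 CPM in low Wnt, 1.56 and 1.46 in low Wnt + TGFB, 97.2 and 60.7 in high Wnt, and 41.2 and 32.6 in high Wnt + TGFB. It fell in high Wnt (log2 change -1.10), a call lost without high Wnt replicate 1 or without high Wnt + TGFB replicate 2 (adjusted p up to 0.11). Its difference of -0.86 did not pass (adjusted p = 0.3). Of the 18, 2 were called higher and 5 lower for the difference (median -0.74).

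**Figure D2:**
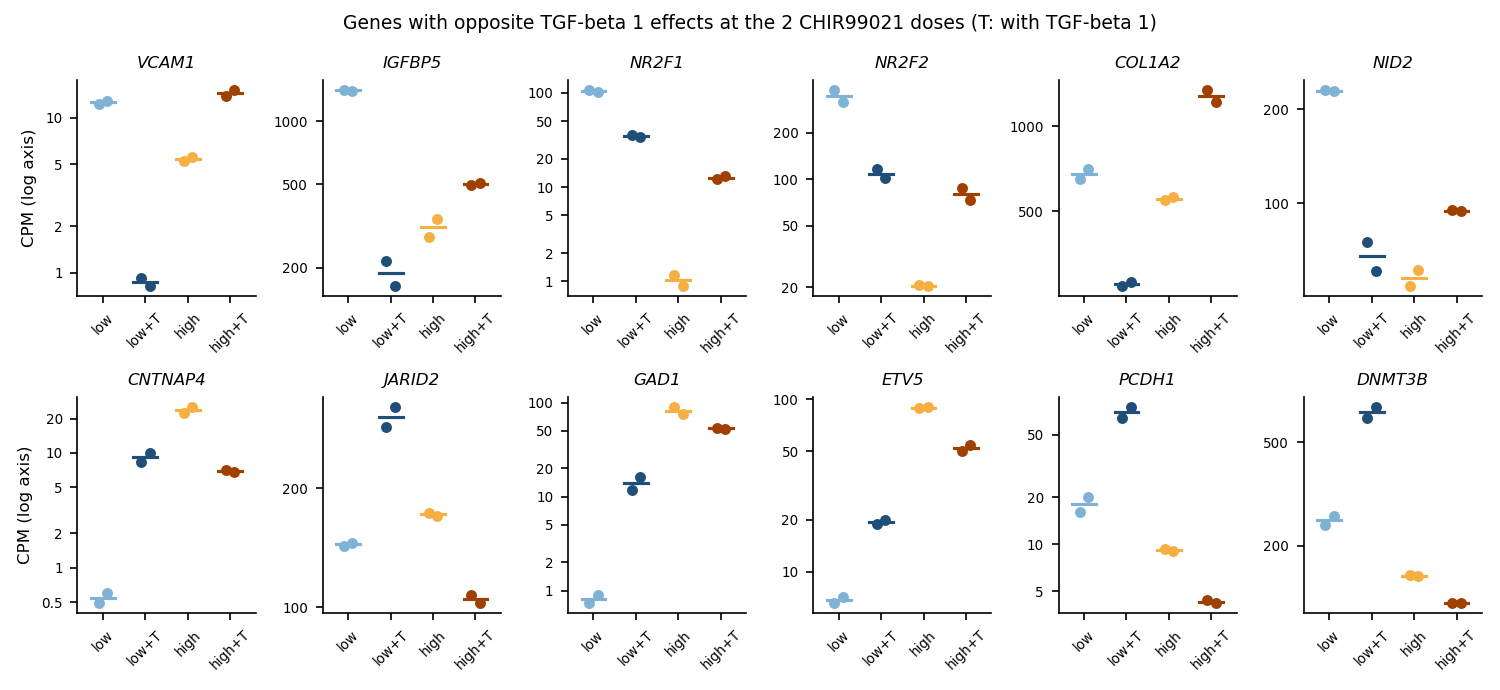
Each panel shows 1 of 12 genes of opposite effects on a log axis of CPM, with every library as a point, the mean of the 2 libraries as a line, and the groups in the order low Wnt, low Wnt + TGFB, high Wnt and high Wnt + TGFB. The upper 6 genes are lower with TGF-beta 1 in low Wnt and higher in high Wnt, and the lower 6 the other way round, with no overlap between treated and untreated libraries at either dose.

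For part of the genes of opposite effects, the dose with the higher level changed. Among the 102 genes that fell in low Wnt and rose in high Wnt, both low Wnt libraries were above both high Wnt libraries for 65 without TGF-beta 1, and both high Wnt + TGFB libraries were above both low Wnt + TGFB libraries for 79. The order of the doses turned over completely, with no overlap before or after, for 42 of the 102 (41.2%). Among the 94 genes of the other direction it turned over for 24 (25.5%). The share was 29.4% of all 1905 genes called for the difference, above that of the second set, and 7.1% of all genes tested. The called genes and both sets were selected in these same libraries by effects that favour such a turnover. Their shares describe the sets and are not a separate result.

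Genes that report on TGF-beta signalling did not respond alike at the 2 doses. Of 27 tested TGF-beta and SMAD2/3 target genes, 10 rose and 5 fell in low Wnt, 3 rose and 2 fell in high Wnt, and the difference was called higher for 5 and lower for 6 (median -0.53). SKIL, a SMAD co-repressor induced as feedback, was at 25.3 and 35.2 CPM in low Wnt, 126 and 140.0 in low Wnt + TGFB, 148 and 169.6 in high Wnt, and 174 and 181 in high Wnt + TGFB. The co-repressor TGIF1 was at 75.9 and 80.6 CPM in low Wnt, 149 and 172 in low Wnt + TGFB, 85.4 and 72.2 in high Wnt, and 67.3 and 67.6 in high Wnt + TGFB. Both rose in low Wnt. In high Wnt neither passed the test (adjusted p = 0.71 for SKIL and 0.32 for TGIF1). The treated and untreated libraries did not overlap there, with SKIL higher and TGIF1 lower with TGF-beta 1. Without TGF-beta 1, SKIL in high Wnt already stood above its low Wnt + TGFB level. The differences were -1.98 ± 0.27 for SKIL (adjusted p = 1.2e-04) and -1.26 ± 0.17 for TGIF1 (adjusted p = 8.1e-05).

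FN1, the matrix glycoprotein fibronectin, rose from 192 and 198 to 491 and 759 CPM in low Wnt. FN1 was at 782 and 816 CPM in high Wnt and 597 and 570.4 in high Wnt + TGFB (difference -2.13 ± 0.22, adjusted p = 4.6e-06). Its lower level with TGF-beta 1 in high Wnt, without overlap, missed the threshold (adjusted p = 0.086). It passed with DESeq2 and without a filter on low counts. TGFBI, a matrix protein named for its induction by TGF-beta, was at 6.64 and 5.80 CPM in low Wnt, 10.8 and 10.4 in low Wnt + TGFB, 437 and 369.6 in high Wnt, and 183 and 197 in high Wnt + TGFB. It rose slightly in low Wnt, where it was scarce, and fell in high Wnt, where it was abundant, with no overlap at either dose. The difference was -1.85 ± 0.23 (adjusted p = 4.0e-05), and the rise in low Wnt lost its call without low Wnt replicate 2 (adjusted p = 0.062). TIMP3, an inhibitor of matrix metalloproteinases, fell from 255 and 261 to 71.6 and 63.2 CPM in low Wnt. TIMP3 was at 62.0 and 77.2 CPM in high Wnt and 74.6 and 85.7 in high Wnt + TGFB (difference 2.14 ± 0.17, adjusted p = 3.2e-07).

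Among the ligands, receptors and SMADs, 2 of 24 tested were called higher and 3 lower (20.8%, against 11.8% of all genes), with a median of -0.02. TGFBR3, the co-receptor betaglycan, was at 157 and 156 CPM in low Wnt, 38.8 and 35.4 in low Wnt + TGFB, 31.3 and 31.8 in high Wnt, and 27.6 and 27.2 in high Wnt + TGFB. TGF-beta 1 took its low Wnt level down to near the level in high Wnt, where it did not pass the test (difference 1.88 ± 0.14, adjusted p = 2.8e-07). BAMBI, a pseudoreceptor that blocks TGF-beta family receptors, rose from 4.81 and 5.50 to 19.4 and 25.1 CPM in low Wnt. BAMBI was at 4.57 and 3.85 CPM in high Wnt and 4.84 and 5.03 in high Wnt + TGFB (difference -1.87 ± 0.28, adjusted p = 2.3e-04). SMAD3 fell at both doses, from 148 and 138 to 85.9 and 73.4 CPM in low Wnt and from 300.4 and 273 to 190.0 and 164 CPM in high Wnt, and its difference of 0.15 ± 0.15 did not pass (adjusted p = 0.6). The type I receptor TGFBR1 was at 265 and 299.5 CPM in low Wnt, 210.5 and 207 in low Wnt + TGFB, 161 and 181 in high Wnt, and 142 and 161 in high Wnt + TGFB (difference 0.26, adjusted p = 0.39), and SMAD2 was between 87.1 and 134 CPM in all 8 libraries (difference -0.04, adjusted p = 0.89).

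Nodal is a TGF-beta family ligand that signals through the same SMADs with the co-receptor TDGF1 and the cofactor FOXH1, and is restrained by the LEFTY proteins. LEFTY2 was at 2.25 and 2.81 CPM in low Wnt, 4.05 and 2.75 in low Wnt + TGFB, 184 and 134 in high Wnt, and 1021 and 1123 in high Wnt + TGFB. It rose in high Wnt to the highest level of the 4 groups, and in low Wnt it did not pass the test, giving a difference of 2.35 ± 0.35 (adjusted p = 2.5e-04). LEFTY1 was at 0.426 and 0.120 CPM in low Wnt, 3.91 and 3.57 in low Wnt + TGFB, 7.73 and 6.603 in high Wnt, and 25.2 and 32.5 in high Wnt + TGFB. It rose at both doses and its difference of -1.73 ± 0.56 did not pass (adjusted p = 0.052, and between 0.0059 and 0.32 over the alternative analyses). FOXH1 rose from 8.22 and 8.67 to 36.9 and 47.5 CPM in low Wnt. FOXH1 was at 8.64 and 7.57 CPM in high Wnt and 6.54 and 5.28 in high Wnt + TGFB, with a difference of -2.79 ± 0.25 (adjusted p = 1.4e-06). TDGF1, named after its values were seen, rose from 10.0 and 17.4 to 196 and 242 CPM in low Wnt. TDGF1 was at most 0.33 CPM in the 4 high Wnt libraries (difference -4.04 ± 1.12, adjusted p = 0.026). That call was lost without any 1 of the 4 high Wnt libraries (adjusted p up to 0.20). NODAL itself was at 0 and 0.179 CPM in low Wnt, 6.47 and 7.67 in low Wnt + TGFB, 1.41 and 1.44 in high Wnt, and 2.51 and 2.88 in high Wnt + TGFB, with a low Wnt level that rests on 3 counts or fewer.

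In low Wnt, TGF-beta 1 raised most of the pluripotency and epithelial genes tested, and in high Wnt few of them changed. Of 20 pluripotency genes tested, 16 rose and 1 fell in low Wnt, and 4 fell in high Wnt. The difference was called for 10, each lower in high Wnt, with a median of -1.53 (-1.65 with the members that had a group at 0 counts set to their bound). L1TD1, an RNA-binding protein of pluripotent cells, rose from 23.3 and 31.2 to 245 and 293 CPM in low Wnt. L1TD1 was at 14.2 and 18.4 CPM in high Wnt and 13.5 and 15.8 in high Wnt + TGFB. TERF1, a telomere-binding protein high in stem cells, rose from 89.4 and 95.3 to 224 and 233 CPM in low Wnt. TERF1 was at 97.4 and 86.5 CPM in high Wnt and 78.5 and 83.6 in high Wnt + TGFB. The differences were -3.46 ± 0.27 for L1TD1 (adjusted p = 2.8e-07) and -1.49 ± 0.15 for TERF1 (adjusted p = 4.0e-06). PODXL, a sialomucin of the stem cell surface, rose from 1314 and 1411 to 1815 and 1896 CPM in low Wnt and fell from 277 and 283 to 157 and 179.8 CPM in high Wnt (difference -1.18 ± 0.13, adjusted p = 1.5e-05).

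The core factors remained far below the stem cell level. POU5F1 was at 1.95 and 4.37 CPM in low Wnt, 44.9 and 38.9 in low Wnt + TGFB, 0.166 and 0.0688 in high Wnt, and 0.0896 and 0 in high Wnt + TGFB, against 164 and 231 CPM in the stem cells. NANOG rose from 0.731 and 1.67 to 15.4 and 18.9 CPM in low Wnt, against 80.6 and 93.5 CPM in the stem cells, and 1 of the 4 high Wnt libraries held a NANOG count. The differences of POU5F1 (adjusted p = 0.16) and NANOG (adjusted p = 0.88) did not pass, with both genes near or at 0 in high Wnt. That of POU5F1 passed with DESeq2 (adjusted p = 0.013) and without a filter on low counts (adjusted p = 0.0089). The summed level of the 20 genes was 4129 and 4373 CPM in low Wnt, 6631 and 7079 in low Wnt + TGFB, 2319 and 2086 in high Wnt, and 1605 and 1541 in high Wnt + TGFB. The part of undifferentiated cells in these differences was not tested.

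Of 17 epithelial genes tested, 12 rose in low Wnt and 2 in high Wnt, and 9 were called for the difference, each lower in high Wnt (median -1.48, or -2.25 with bounds). EPCAM, an epithelial adhesion molecule, was at 11.3 and 14.4 CPM in low Wnt, 109 and 144 in low Wnt + TGFB, 12.4 and 8.74 in high Wnt, and 6.99 and 6.69 in high Wnt + TGFB. Its lower level with TGF-beta 1 in high Wnt did not pass (adjusted p = 0.12), but passed with DESeq2 and without a filter on low counts. The tight junction gene CLDN7 was at 1.83 and 1.67 CPM in low Wnt, 24.5 and 33.0 in low Wnt + TGFB, 4.16 and 4.06 in high Wnt, and 6.45 and 6.14 in high Wnt + TGFB. The related CLDN6 was at 85.8 and 94.9 CPM in low Wnt, 300.4 and 347 in low Wnt + TGFB, 96.7 and 90.0 in high Wnt, and 69.6 and 75.2 in high Wnt + TGFB. In low Wnt the treated libraries of these genes lay several times above the untreated ones. The differences were -3.92 ± 0.29 for EPCAM (adjusted p = 2.3e-07), -3.42 ± 0.33 for CLDN7 (adjusted p = 2.1e-06) and -2.21 ± 0.18 for CLDN6 (adjusted p = 5.2e-07). The placental cadherin CDH3 rose from 11.8 and 13.04 to 43.2 and 54.5 CPM in low Wnt. CDH3 was at 21.1 and 17.1 CPM in high Wnt and 15.6 and 15.9 in high Wnt + TGFB (difference -2.25 ± 0.22, adjusted p = 2.5e-06). CDH1, the epithelial E-cadherin, rose from 10.3 and 12.6 to 109.8 and 142 CPM in low Wnt. CDH1 was at most 0.63 CPM in the 4 high Wnt libraries. Its difference of -3.19 ± 0.67 (adjusted p = 0.0044) lost its call without high Wnt replicate 1 (adjusted p = 0.052).

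Mesenchymal genes were divided. Of 13 tested, 6 fell and 4 rose in low Wnt, 2 fell and 3 rose in high Wnt, and the difference was called higher for 6 and lower for 2, FN1 among them (median 0.32). CDH11, VIM and CDH2 were among those called higher. CDH11, a mesenchymal cadherin, fell from 313 and 299 to 159 and 131 CPM in low Wnt. CDH11 was at 265 and 299 CPM in high Wnt and 294 and 290.5 in high Wnt + TGFB (difference 1.13 ± 0.14, adjusted p = 4.5e-05). VIM, the intermediate filament vimentin, fell from 1851 and 1791 to 1208 and 1192 CPM in low Wnt. VIM was at 1793 and 1481 CPM in high Wnt and 1973 and 1832 in high Wnt + TGFB (difference 0.82 ± 0.16, adjusted p = 0.0025). CDH2, the neural and mesenchymal N-cadherin, fell from 524 and 574 to 388 and 393 CPM in low Wnt. CDH2 was at 321 and 300.0 CPM in high Wnt and 334 and 329.7 in high Wnt + TGFB (difference 0.59 ± 0.13, adjusted p = 0.0055).

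Endoderm genes rose with TGF-beta 1 in low Wnt. Of 13 endoderm genes tested, 12 rose in low Wnt and 1 in high Wnt, against 13.7% and 3.75% of all genes. The difference was called for 3 (23.1%, against 11.8% of all genes), CLDN6 among them, each lower in high Wnt. The endoderm factor SOX17, named after its values were seen, was at 0.183 and 0.538 CPM in low Wnt, 14.7 and 32.4 in low Wnt + TGFB, 0 and 0.0688 in high Wnt, and 0 and 0 in high Wnt + TGFB. The difference of SOX17 did not pass the test (adjusted p = 0.16). It rested on 1 count in the 4 high Wnt libraries, and passed with DESeq2 (adjusted p = 0.0067) and without a filter on low counts (adjusted p = 0.037). The summed level of 14 endoderm genes was 210 and 222 CPM in low Wnt, 519 and 704 in low Wnt + TGFB, 336 and 254 in high Wnt, and 332 and 295 in high Wnt + TGFB. CLDN6, given above among the epithelial genes, is also on this list and made up the larger part of the summed rise in low Wnt. SP5, a direct target of Wnt and a marker of the primitive streak and tail bud, was at 1.34 and 1.97 CPM in low Wnt, 29.5 and 54.4 in low Wnt + TGFB, 23.2 and 20.6 in high Wnt, and 16.04 and 15.5 in high Wnt + TGFB. Its treated low Wnt libraries exceeded even the untreated high Wnt ones, and the difference was -5.13 ± 0.40 (adjusted p = 3.2e-07).

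Direct Wnt targets were mixed. Of 17 tested, 6 rose and 1 fell in low Wnt, and 2 rose and 1 fell in high Wnt. For the difference 6 were called, each lower in high Wnt, although the median was -0.0007. RNF43, a feedback inhibitor of Wnt receptors, rose from 1.77 and 2.33 to 8.54 and 8.72 CPM in low Wnt. RNF43 was at 11.6 and 11.6 CPM in high Wnt and 11.7 and 9.88 in high Wnt + TGFB (difference -2.18 ± 0.29, adjusted p = 7.6e-05). DKK1, a secreted Wnt antagonist, rose at both doses, from 1.04 and 1.55 to 16.2 and 17.7 CPM in low Wnt and from 19.03 and 18.5 to 79.3 and 70.8 CPM in high Wnt. Its log2 rise was smaller in high Wnt (difference -1.70 ± 0.27, adjusted p = 4.3e-04), while its rise in CPM was larger there. AXIN2, a general readout of beta-catenin activity, was at 64.4 and 78.9 CPM in low Wnt, 57.3 and 76.5 in low Wnt + TGFB, 48.7 and 42.6 in high Wnt, and 59.8 and 53.6 in high Wnt + TGFB. For AXIN2 neither effect nor the difference passed (adjusted p = 0.22).

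BMP pathway genes more often had a lower than a higher called difference. Of 20 BMP pathway genes tested, 11 rose and 2 fell in low Wnt, and 3 rose and 1 fell in high Wnt. For the difference 2 were called higher and 8 lower (50%, against 11.8% of all genes, median -0.70). BMP2 was at 14.6 and 16.1 CPM in low Wnt, 45.9 and 72.7 in low Wnt + TGFB, 41.1 and 32.1 in high Wnt, and 21.9 and 20.8 in high Wnt + TGFB, with a difference of -2.73 ± 0.26 (adjusted p = 2.5e-06). Its fall in high Wnt lost its call without high Wnt replicate 1 or without either high Wnt + TGFB library (adjusted p up to 0.20). ID4, a BMP-induced inhibitor of helix-loop-helix factors, rose from 59.7 and 54.0 to 119.9 and 167 CPM in low Wnt. ID4 was at 47.1 and 51.7 CPM in high Wnt and 43.4 and 48.2 in high Wnt + TGFB (difference -1.44 ± 0.21, adjusted p = 2.3e-04).

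Of 12 neural plate border genes tested, 10 rose in low Wnt, 2 rose and 3 fell in high Wnt, and 8 were called for the difference, each lower in high Wnt (median -1.29). TFAP2C, a factor of border and surface ectoderm, rose from 3.59 and 4.48 to 11.5 and 16.5 CPM in low Wnt. TFAP2C was at 12.4 and 13.4 CPM in high Wnt and 9.23 and 12.8 in high Wnt + TGFB (difference -2.01 ± 0.34, adjusted p = 7.9e-04). CDH6, a cadherin of premigratory crest, rose from 25.6 and 27.9 to 114 and 135 CPM in low Wnt, and in high Wnt it fell from 716 and 946 to 436 and 596 CPM (difference -2.91 ± 0.22, adjusted p = 2.5e-07). That fall lost its call without high Wnt replicate 2 or without high Wnt + TGFB replicate 1 (adjusted p up to 0.15). ERBB3, a neuregulin receptor of crest and glia, rose from 18.2 and 17.3 to 40.5 and 44.1 CPM in low Wnt. ERBB3 was at 23.2 and 22.1 CPM in high Wnt and 17.8 and 15.95 in high Wnt + TGFB (difference -1.68 ± 0.18, adjusted p = 7.8e-06).

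**Figure D3:**
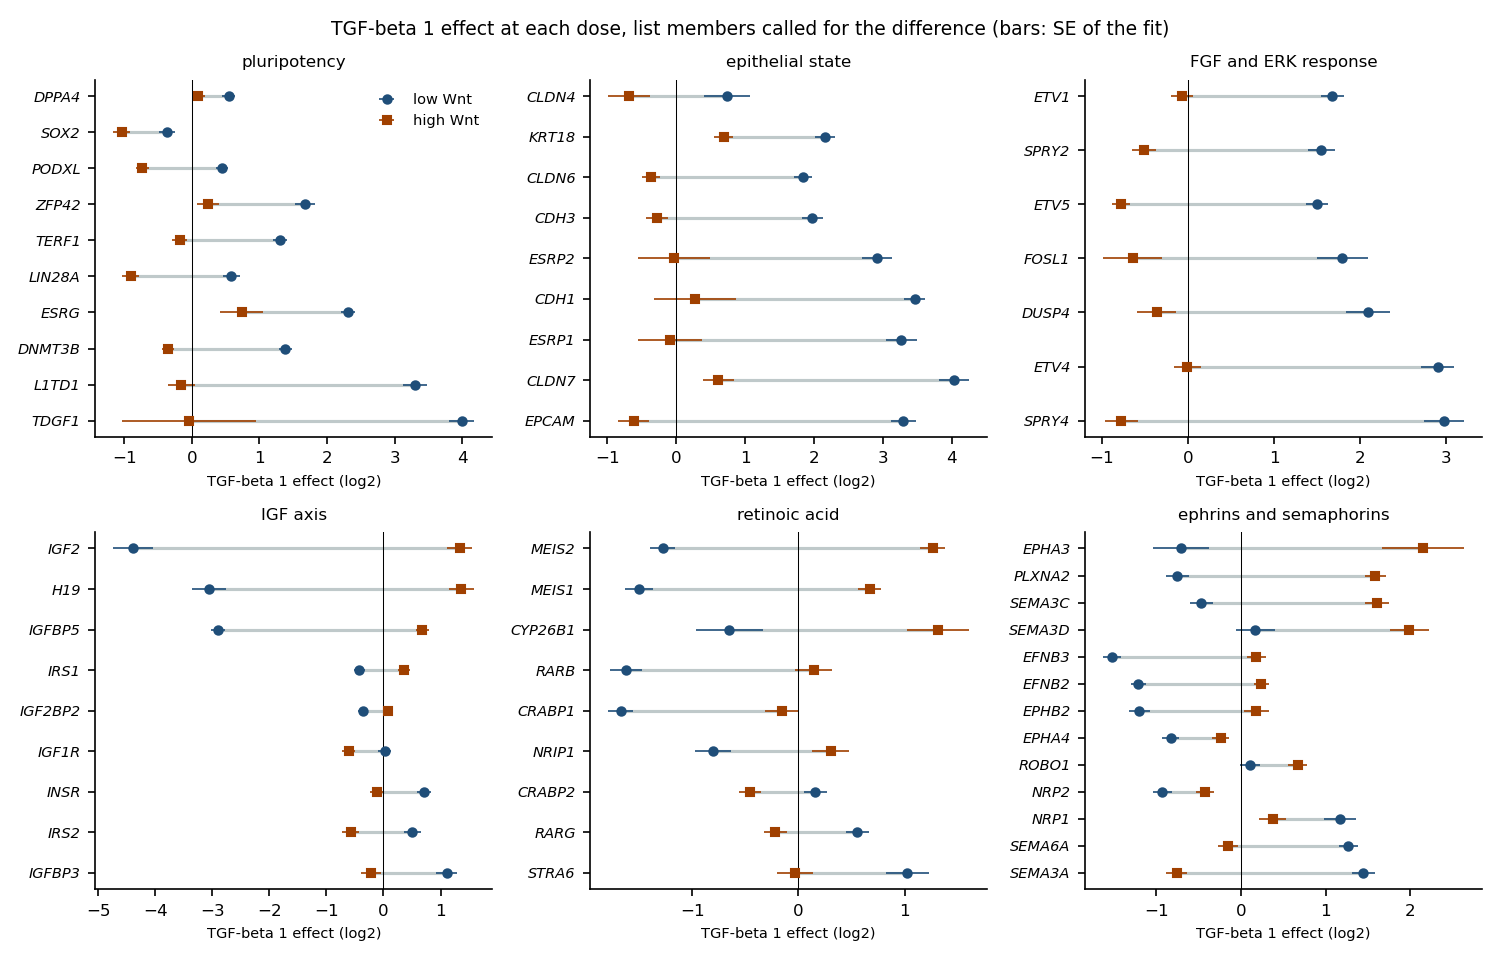
Each panel shows, for 1 gene list, the members called for the difference, with the log2 change with TGF-beta 1 in low Wnt (circles) and in high Wnt (squares) on the horizontal axis and bars for the standard error of the fit. In the pluripotency, epithelial and FGF and ERK response panels every square lies left of its circle, and in the IGF, retinoic acid and ephrin and semaphorin panels squares lie on both sides.

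Neural progenitor genes fell with TGF-beta 1 in low Wnt. Of 16 central nervous system progenitor genes tested, 12 fell and 3 rose in low Wnt, 5 fell and 1 rose in high Wnt, and the difference was called higher for 6 and lower for 4 (median 0.82, or 0.62 with bounds). PAX6, a neural progenitor factor, fell from 54.1 and 50.0 to 19.1 and 11.8 CPM in low Wnt. PAX6 was at 5.98 and 6.67 CPM in high Wnt and 6.18 and 6.14 in high Wnt + TGFB (difference 1.72 ± 0.30, adjusted p = 0.0011). POU3F2, a neural POU factor, fell from 103 and 79.8 to 17.6 and 14.5 CPM in low Wnt. POU3F2 was at 12.1 and 15.96 CPM in high Wnt and 7.80 and 10.1 in high Wnt + TGFB (difference 1.88 ± 0.26, adjusted p = 1.2e-04). Its lower level with TGF-beta 1 in high Wnt did not pass (adjusted p = 0.064), but passed with DESeq2 and without a filter on low counts. The summed level of 18 such genes was 1075 and 932 CPM in low Wnt and 536 and 554 in low Wnt + TGFB, and 538 and 496 in high Wnt and 267 and 282 in high Wnt + TGFB, a drop at both doses. DLL3, a Notch ligand of nascent neurons and presomitic mesoderm, fell from 33.2 and 24.9 to 6.54 and 7.32 CPM in low Wnt. DLL3 was at 55.0 and 41.7 CPM in high Wnt and 57.0 and 50.2 in high Wnt + TGFB (difference 2.21 ± 0.23, adjusted p = 5.7e-06). HEYL, a Notch target, was at 29.2 and 33.1 CPM in low Wnt, 13.4 and 11.7 in low Wnt + TGFB, 8.64 and 8.53 in high Wnt, and 20.1 and 14.4 in high Wnt + TGFB (difference 2.31 ± 0.27, adjusted p = 2.5e-05), and its rise in high Wnt lost its call without high Wnt + TGFB replicate 1 (adjusted p = 0.079). Of 18 Notch pathway genes tested, 9 fell and 3 rose in low Wnt, and 3 fell and 3 rose in high Wnt. For the difference 4 were called (22.2%, against 11.8% of all genes), each higher in high Wnt (median 0.53).

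Of 30 ephrin, semaphorin and related guidance genes tested, 10 were called higher and 3 lower (43.3%, against 11.8% of all genes, median 0.30). EFNB2, an ephrin that guides migrating crest, fell from 409.8 and 386 to 182 and 162 CPM in low Wnt. EFNB2 was at 169 and 179 CPM in high Wnt and 202 and 208 in high Wnt + TGFB (difference 1.45 ± 0.13, adjusted p = 9.1e-07). EFNB3 fell from 189 and 181 to 69.1 and 59.5 CPM in low Wnt. EFNB3 was at 37.6 and 35.3 CPM in high Wnt and 43.8 and 39.0 in high Wnt + TGFB (difference 1.71 ± 0.15, adjusted p = 1.3e-06). SEMA3A, a secreted repellent of crest cells and axons, was at 16.6 and 20.9 CPM in low Wnt, 47.3 and 54.6 in low Wnt + TGFB, 111 and 123 in high Wnt, and 66.8 and 71.7 in high Wnt + TGFB. It rose in low Wnt and fell in high Wnt without overlap, with a difference of -2.21 ± 0.18 (adjusted p = 5.4e-07). TNC, the matrix protein tenascin-C of migration paths, was at 20.7 and 19.4 CPM in low Wnt, 33.9 and 43.3 in low Wnt + TGFB, 116 and 110.0 in high Wnt, and 47.9 and 48.2 in high Wnt + TGFB and likewise reversed (difference -2.18 ± 0.20, adjusted p = 1.3e-06).

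Other genes fell strongly in low Wnt and did not pass the test in high Wnt. PRSS23, a secreted serine protease, fell from 229.7 and 226 to 29.2 and 23.8 CPM in low Wnt. PRSS23 was at 129 and 121 CPM in high Wnt and 90.7 and 99.8 in high Wnt + TGFB (difference 2.72 ± 0.17, adjusted p = 5.1e-08). The treated and untreated high Wnt libraries of PRSS23 did not overlap, and its lower level with TGF-beta 1 missed the threshold there (adjusted p = 0.055) but passed in 7 of 16 alternative analyses (adjusted p from 0.012 to 0.32). CAMK2N1, an inhibitor of the kinase CaMKII, fell from 207 and 184 to 32.0 and 25.0 CPM in low Wnt. CAMK2N1 was at 20.4 and 20.2 CPM in high Wnt and 18.4 and 18.3 in high Wnt + TGFB (difference 2.63 ± 0.18, adjusted p = 1.3e-07). WWTR1, the Hippo pathway coactivator TAZ, fell from 150.1 and 162 to 49.2 and 46.6 CPM in low Wnt to just below its level in high Wnt, which was at 59.4 and 54.4 CPM in high Wnt and 63.4 and 61.4 in high Wnt + TGFB (difference 1.84 ± 0.14, adjusted p = 3.2e-07). EFEMP1, a matrix fibulin, fell from 149 and 152 to 44.8 and 34.4 CPM in low Wnt. EFEMP1 was at 104 and 103 CPM in high Wnt and 114 and 107 in high Wnt + TGFB (difference 2.03 ± 0.15, adjusted p = 2.5e-07). GPC4 and FLT1 were among the genes whose rise passed the test in low Wnt alone. GPC4, a glypican, rose from 63.9 and 68.8 to 329 and 364 CPM (difference -2.49 ± 0.17, adjusted p = 7.6e-08). FLT1, the VEGF receptor VEGFR1, rose from 3.23 and 2.87 to 39.9 and 36.8 CPM (difference -3.47 ± 0.27, adjusted p = 3.2e-07). In high Wnt neither passed (adjusted p = 0.67 for GPC4 and 0.60 for FLT1), although the treated FLT1 libraries lay above the untreated ones. FLT1 was at 56.0 and 56.5 CPM in high Wnt and 65.3 and 62.3 in high Wnt + TGFB, so TGF-beta 1 in low Wnt brought it most of the way to its high Wnt level. Of 21 glycolysis and hypoxia genes tested, 1 was called higher and 5 lower for the difference. The glucose transporter SLC2A3 rose from 527 and 602 to 1144 and 1402 CPM in low Wnt and fell from 377 and 313 to 207 and 192 CPM in high Wnt (difference -1.97 ± 0.19, adjusted p = 2.1e-06), and the hypoxia-induced peptide gene ADM rose from 4.39 and 5.86 to 33.1 and 57.9 CPM in low Wnt. ADM was at 13.4 and 10.3 CPM in high Wnt and 8.51 and 8.84 in high Wnt + TGFB (difference -3.59 ± 0.34, adjusted p = 2.0e-06).

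Genes that passed the test in high Wnt alone included matrix and cytoskeletal genes. COL14A1, a fibril-associated collagen, was at 12.6 and 15.3 CPM in low Wnt, 16.6 and 15.8 in low Wnt + TGFB, 38.6 and 46.7 in high Wnt, and 183 and 174 in high Wnt + TGFB. EYA1, a transcriptional coactivator of placodes and mesoderm, was at 4.87 and 4.13 CPM in low Wnt, 2.77 and 3.51 in low Wnt + TGFB, 21.2 and 21.1 in high Wnt, and 94.1 and 75.5 in high Wnt + TGFB. OLFML2B, a secreted olfactomedin-domain protein, was at 13.1 and 13.2 CPM in low Wnt, 11.7 and 10.1 in low Wnt + TGFB, 10.6 and 13.6 in high Wnt, and 42.3 and 39.3 in high Wnt + TGFB. In all 3 the high Wnt + TGFB libraries stood above the other 6. In low Wnt, COL14A1 was higher and EYA1 and OLFML2B lower with TGF-beta 1, without overlap. These low Wnt effects did not pass (adjusted p = 0.40, 0.12 and 0.22). The differences were 1.85 ± 0.23 for COL14A1 (adjusted p = 3.3e-05), 2.51 ± 0.28 for EYA1 (adjusted p = 1.4e-05) and 2.02 ± 0.22 for OLFML2B (adjusted p = 8.5e-06). MAP2, a neuronal microtubule-associated protein, was at 478 and 475 CPM in low Wnt, 446 and 369 in low Wnt + TGFB, 33.8 and 37.3 in high Wnt, and 16.04 and 15.2 in high Wnt + TGFB. It fell in high Wnt, where it was already low, and the log2 difference was -0.96 ± 0.17 (adjusted p = 0.0011). In low Wnt MAP2 was also lower with TGF-beta 1, without overlap, but did not pass the test (adjusted p = 0.14). In CPM that drop was larger than the fall in high Wnt.

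Paraxial mesoderm genes rose with TGF-beta 1 in high Wnt. Of 13 tested, 8 rose in high Wnt and 1 in low Wnt, and the difference was called for 1, with few counts in the low Wnt libraries. MEOX1, a somite homeobox gene, was at 0.731 and 0.359 CPM in low Wnt, 0.925 and 0.176 in low Wnt + TGFB, 75.4 and 71.8 in high Wnt, and 232 and 210.3 in high Wnt + TGFB, and its difference of 1.66 ± 0.65 did not pass (adjusted p = 0.12). The difference of MEOX1 passed with DESeq2 (adjusted p = 0.023), without a filter on low counts (adjusted p = 0.013) and without low Wnt + TGFB replicate 1 (3.15, adjusted p = 0.013), and was 0.83 at the lowest over the alternatives. The summed level of 16 such genes was 470 and 449 CPM in high Wnt and 987 and 912 in high Wnt + TGFB, and between 19.4 and 25.0 in the 4 low Wnt libraries. Of 16 axial progenitor genes tested, 4 rose and 1 fell in low Wnt, and 6 fell in high Wnt. The difference was called for 4 of the 16 (25%, against 11.8% of all genes), each lower in high Wnt: NKX1-2, FGF17, SP5 and EVX1. CDX2, a posterior homeobox factor, fell from 323 and 312 to 166 and 172 CPM in high Wnt and was at most 2.28 CPM in low Wnt. The difference of -0.95 did not pass (adjusted p = 0.21), was -0.04 (adjusted p = 0.99) without low Wnt + TGFB replicate 1, and passed without low Wnt + TGFB replicate 2 (-1.59, adjusted p = 0.025) and without a filter on low counts (adjusted p = 0.033). The part of paraxial mesoderm cells in the high Wnt effect was not tested.

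Some genes rose at both doses by different amounts. PMAIP1, the pro-apoptotic BH3 protein NOXA, was at 4.93 and 5.26 CPM in low Wnt, 99.7 and 91.7 in low Wnt + TGFB, 1.33 and 1.24 in high Wnt, and 2.69 and 2.64 in high Wnt + TGFB. PAMR1, a secreted regeneration-associated protease-like protein, was at 10.1 and 11.3 CPM in low Wnt, 60.7 and 65.2 in low Wnt + TGFB, 66.7 and 64.4 in high Wnt, and 163 and 147 in high Wnt + TGFB. On the log2 scale the rise of both was larger in low Wnt, with differences of -3.18 ± 0.30 (adjusted p = 2.2e-06) and -1.32 ± 0.16 (adjusted p = 3.6e-05). In CPM the rise of PAMR1 was larger in high Wnt. HAPLN1, a link protein of hyaluronan matrix, was at 2.01 and 1.44 CPM in low Wnt, 3.27 and 3.22 in low Wnt + TGFB, 16.1 and 14.8 in high Wnt, and 138 and 144 in high Wnt + TGFB. FRZB, a secreted Wnt antagonist, was at 38.8 and 37.7 CPM in low Wnt, 52.1 and 52.3 in low Wnt + TGFB, 41.9 and 42.9 in high Wnt, and 137 and 127 in high Wnt + TGFB. Their rise was larger in high Wnt, with differences of 2.28 ± 0.29 (adjusted p = 4.7e-05) and 1.19 ± 0.17 (adjusted p = 1.7e-04). Leaving out single libraries ended the calls of some smaller changes. The rise of PMAIP1 in high Wnt was lost without any 1 of the 4 high Wnt libraries (adjusted p up to 0.10), that of HAPLN1 in low Wnt without low Wnt replicate 2 (adjusted p = 0.11), and that of FRZB in low Wnt without either low Wnt library or low Wnt + TGFB replicate 2 (adjusted p up to 0.078).

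Fewer members than the 11.8% of all genes were called in some lists. Of 20 genes of DNA replication and mitosis tested, 1 was called for the difference (median -0.05). Of 13 paraxial mesoderm genes 1 was called (7.69%). Of 12 HOX genes of paralogue groups 6 to 9 tested, 0 were called, and of 10 anterior head genes 1 was (10%). Every other list had a larger share than that background, from 12.9% of Wnt ligands and receptors to 66.7% of neural plate border genes. The HOX genes of paralogue groups 1 to 5 (20%) and cholesterol synthesis (18.8%) were among them. The 12.9% (4 of 31), 10% and 7.69% lie near the background, where 1 gene more or fewer changes the side. The lists were not tested as sets. Of 15 HOX genes of paralogue groups 1 to 5 tested, 3 were called, each higher in high Wnt (median 0.28), among them HOXB2, which fell from 5.85 and 5.56 to 1.99 and 2.63 CPM in low Wnt. HOXB2 was at 72.0 and 78.8 CPM in high Wnt and 73.4 and 74.4 in high Wnt + TGFB (difference 1.25 ± 0.28, adjusted p = 0.0058). Of 16 cholesterol synthesis genes, 3 were called (median 0.08).

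**Figure D4:**
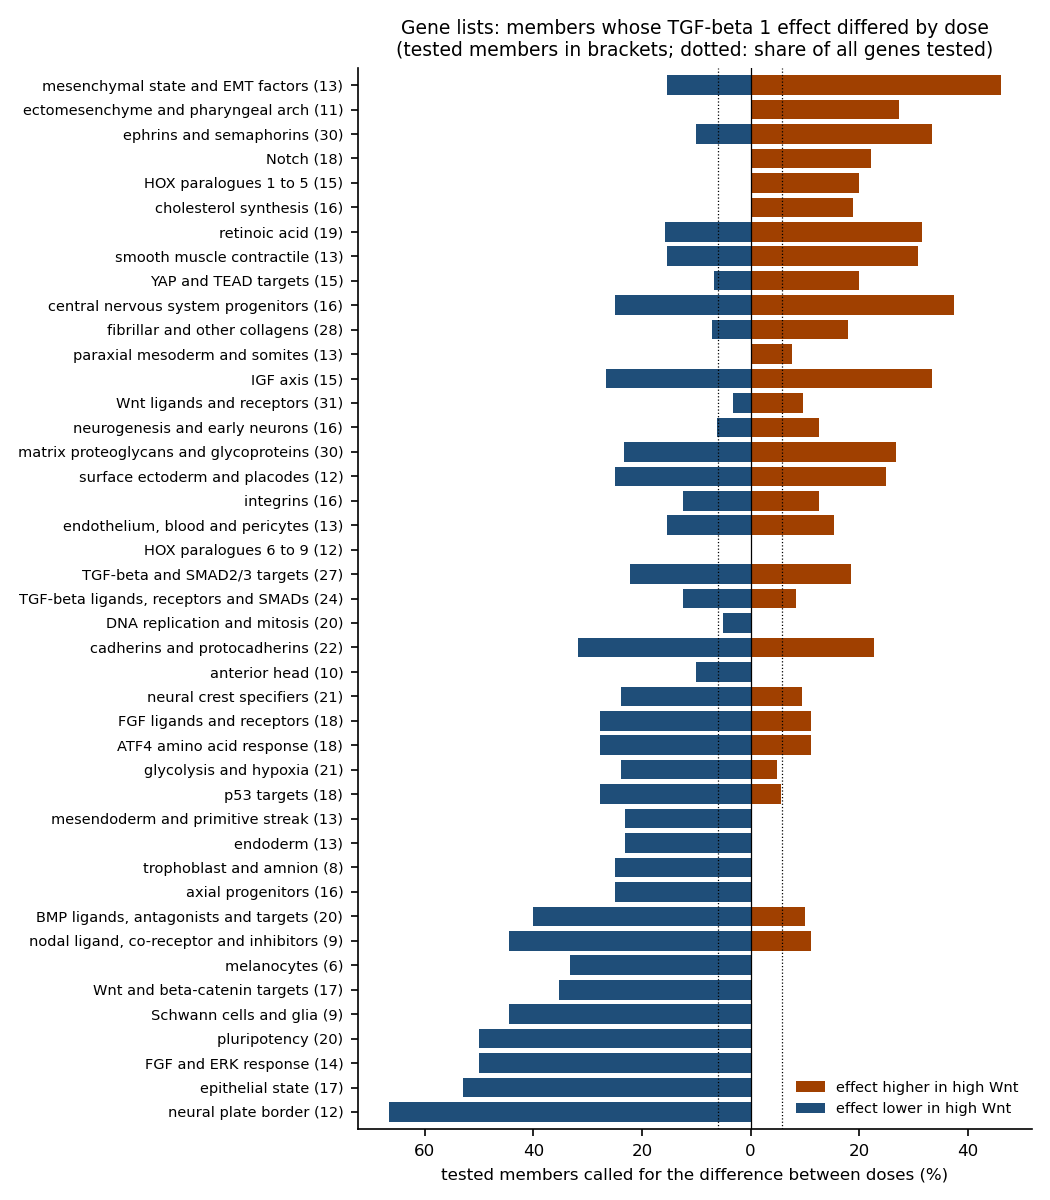
Bars give, for each gene list, the percentage of its tested members (number in brackets) whose difference between doses was called higher (right of 0) or lower (left of 0) in high Wnt, and dotted lines mark the 5.73% and 6.06% of all genes tested. Called members of the pluripotency, FGF and ERK response, epithelial and neural plate border lists all lie on the lower side, while guidance, retinoic acid and mesenchymal lists have more on the higher side.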

How the data were processed

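RNA from day 5 cells was isolated with the RNAqueous-micro kit, selected for polyA and made into strand-specific libraries, per the labels' protocols. The submitters' processing notes name HISAT2 2.2.0, featureCounts 2.0.0, SAMtools 1.10, bcl2fastq and the hg38 build, with no further settings. The deposited values are raw counts per gene: per the file headers, the authors counted read pairs over exons with featureCounts, reverse-stranded, leaving out reads that map to several places or overlap several genes. Near-identical copies are therefore undercounted.

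The counts were analysed with edgeR 4.0.16 in R 4.3.3: filterByExpr by group (16149 of 26485 genes kept), TMM scaling, and 1 quasi-likelihood fit of all 14 libraries with a mean for each of 7 groups (7 residual degrees of freedom). The contrast between doses and the effect at each dose were tested with Benjamini-Hochberg adjustment over all genes, called at an adjusted p under 0.05. The fit gives log2 changes with a prior count of 0.125, and standard errors were derived from the log2 change and its F statistic. CPM were computed from the deposited counts and the TMM-scaled library sizes. A group of 0 counts gives no fold, and members with one were set to the floor of 3 counts in medians given with bounds. That floor covers counting error only.

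Alternatives were DESeq2 1.42.0, other scalings and filters, other sets of libraries, a block for the replicate number, a minimum fold and leaving out each library. On data simulated from these libraries, the contrast between doses recovered 74% of 100 genes changed by 1 log2 unit. It recovered 100% of 100 genes changed by 2. Of its 192 calls, 18 (9.38%) were false, a larger share than the adjusted p threshold of 0.05. The changed genes were drawn only from those with a mean of at least 10 CPM. Recovery was thus not measured for genes with few counts, and these shares may not hold for genes near 0. The gene lists and the contrast were chosen with earlier results of these data known. Genes were named by rule: the extreme differences among called genes reaching 10 CPM, the smallest p in each class and direction, up to 4 members of each list by p, and a fixed panel. Some genes that the rule names are not reported here. Older symbols were matched to current ones. Promoters came from the RefSeq table (GRCh38.p14) by symbol. With 10879287 to 16764513 counts per library, 3 counts correspond to between 0.179 and 0.276 CPM.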

Additional observations from a re-analysis of the deposited data

Results flagged for a closer look

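The effect of TGF-beta 1 differed between the CHIR99021 doses, by the test of the difference itself, for 1905 genes, and for 196 of them the effect passed the test in opposite directions at the 2 doses. Among the genes that fell in low Wnt and rose in high Wnt, the log2 difference was 5.27 for VCAM1, 3.58 for IGFBP5, 5.20 for NR2F1, 3.66 for NR2F2, 2.50 for COL1A2 and 2.48 for NID2. Among those that rose in low Wnt and fell in high Wnt it was -5.82 for CNTNAP4, -1.79 for JARID2, -4.73 for GAD1, -2.28 for ETV5, -3.05 for PCDH1 and -1.74 for DNMT3B. As for all 196, the 2 treated and 2 untreated libraries of these 12 genes did not overlap at either dose. The fall in high Wnt lost its call in 4 of 16 alternative analyses for GAD1 and in 5 of 16 for DNMT3B.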

How the results depend on the processing

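The difference between doses was called for 1905 genes, and for 1840 with DESeq2 (1678 shared), 1918 with RLE scaling, 1864 by library totals alone, 2315 without a filter, 1577 with at least 10 CPM in the highest group, 1984 in a fit of the 8 libraries and 2200 without the stem cells; every shared call kept its sign. With an absolute log2 value of at least 1 required, the difference was called for 1064 genes (430 higher, 634 lower), the low Wnt effect for 1654 (1199 higher, 455 lower) and the high Wnt effect for 428 (294 higher, 134 lower). With that limit on the separate effects, the 1905 genes held 46 of opposite direction, 705 that passed in low Wnt alone, 129 in high Wnt alone, 20 in the same direction and 1005 at neither dose, which follows from fewer genes passing at each dose. Leaving out 1 library gave between 1251 and 1731 genes for the difference (587 to 765 higher, 658 to 966 lower), 2347 to 4113 for the low Wnt effect (1328 to 2337 higher, 1019 to 1776 lower), 538 to 1205 for the high Wnt effect (317 to 647 higher, 221 to 573 lower) and 106 to 179 of opposite direction. Of the named genes called for the difference, CDH1, SOX10 and TDGF1 lost the call without single libraries. The lone library left in a group was then assumed to vary like the other groups. No named gene turned its direction in these analyses, all on the log2 scale. As a difference of CPM differences, 1875 of the 1905 genes kept their sign, while PAMR1, DKK1 and MAP2 did not. The lowest counts came without low Wnt + TGFB replicate 2 for the difference (1251) and the low Wnt effect (2347), and without high Wnt + TGFB replicate 1 for the high Wnt effect (538) and the genes of opposite direction (106).

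The replicate numbers were not treated as pairing the samples, since that asked for a correlation over 0.1 in every pair of groups. Deviations of same-numbered libraries correlated by 0.031 to 0.192 over 10948 genes, positive in all 6 pairs of groups and over 0.1 in 4, among them both pairs within a dose (0.138 and 0.192). With a replicate block the difference was called for 2129 genes (1900 shared), the low Wnt effect for 4561, the high Wnt effect for 1418, and 229 genes had opposite effects. Depth limits genes near 0 in 1 dose: 71 called genes had a group at 3 counts or fewer, 20 of them at 0.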
